A study of Daphnia magna with 80 samples.

Results

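Genes whose expression moved in opposite directions with age in males and females of the water flea Daphnia magna were described here, 300 of the 26646 gene IDs counted. They were chosen on these same libraries. Genes were kept where the median CPM (read counts scaled to library size, in the usual unit) reached 3 in both sexes, 10701 in all and called eligible genes below, and the Spearman correlation (rho) of CPM with age in days was taken separately in each sex. A gene was chosen when rho was at least 0.3 in one sex and at most -0.3 in the other. The rule was met by 206 genes that fell with age in males and rose in females, and by 292 that rose in males and fell in females. The 150 of each direction with the largest smaller absolute rho are the members. The first set is called the male-falling genes and the second the male-rising genes.

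The libraries were made from whole animals of 1 strain, Bham2, kept under normal conditions in the same medium, light cycle and diet, and frozen at a known age when the brood pouch was empty. The 37 male libraries cover 13 ages from 8 to 40 days and the 39 female libraries 15 ages from 10 to 80 days, so that the female trend covers a longer span than the male one. Most groups of 1 sex and age held 3 libraries, and the 7 ages of 10, 15, 20, 25, 30, 35 and 40 days were sampled in both sexes, with 19 libraries of each sex. The labels do not say how many animals went into a library or whether replicates came from separate cultures, so p-values speak only of variation among these samples, and that variation may be technical. Libraries held 1599627 to 33480868 gene counts in males (median 19608955) and 2242215 to 27789716 in females (median 19077345). In whole animals, fewer cells of a type and less RNA per cell cannot be told apart.

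Daphnia reproduce mostly without mating. A female makes clonal eggs, and the same genotype develops as a daughter or a son depending on a hormonal signal from the mother, so that both sexes share 1 genome and differ in which genes are used. Adult females moult and release a brood in repeated cycles, which makes ovary, yolk and cuticle formation recurrent through adult life, while males put their gonad to sperm and carry modified antennules and legs for mating. The files give IDs only, 0 of which matched the reference table used here, so no member is given a name or a role.

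Opposite trends were the smallest corners of the joint distribution. Of the eligible genes, 1961 fell by at least the threshold of the rule in both sexes and 1421 rose in both, against 206 (1.93%) that fell in males and rose in females and 292 (2.73%) that rose in males and fell in females. Among the male-falling genes rho ran from -0.90 to -0.33 in males (median -0.48) and from 0.33 to 0.76 in females (median 0.46). For the male-rising genes it ran from 0.37 to 0.85 in males (median 0.47) and from -0.85 to -0.37 in females (median -0.50). The last male-falling gene taken had a rho of -0.55 in males and 0.33 in females, and the first one left out had -0.33 in males and 0.52 in females. The last male-rising gene taken had 0.37 in males and -0.37 in females, and the first left out 0.36 in males and -0.58 in females. These values chose the members and are given as a description. Members spanned a wide range of levels: median CPM of the male-falling genes ran from 3.58 to 3490 in males and from 3.08 to 4803 in females, and that of the male-rising genes from 3.29 to 753.9 in males and from 4.10 to 1594 in females.

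**Figure D1:**
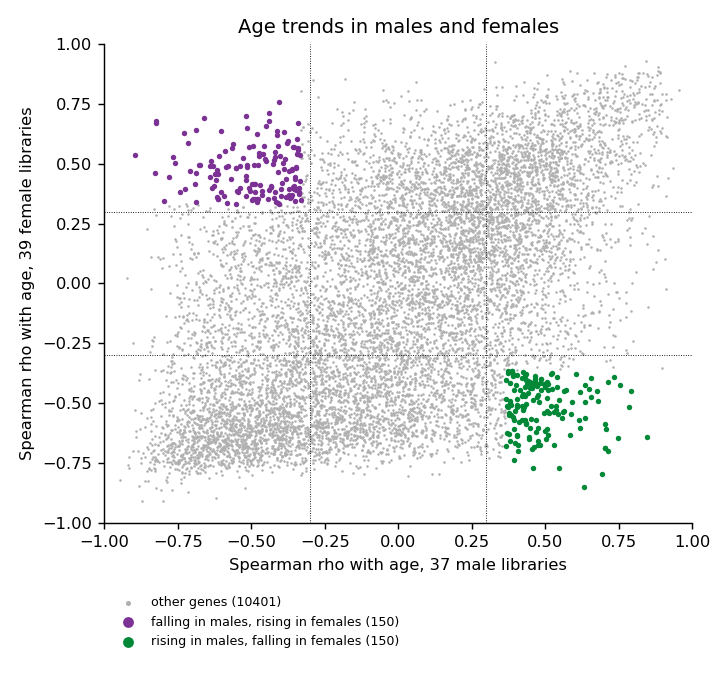
Spearman rho of CPM with age in 37 male libraries (horizontal axis) against that in 39 female libraries (vertical axis) for the 10701 eligible genes, with the 150 male-falling and the 150 male-rising members in colour and the rule's thresholds of 0.3 as dotted lines. Of these genes 1961 fell past the threshold in both sexes and 1421 rose in both, and the members lie in the opposite corners.

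For the male-falling genes median slopes were of like size where the span of ages was close, but changes between the same ages were smaller in females. Slopes were also smaller in females when ages up to 80 days were included. They were fitted with edgeR as log2 changes per 10 days and are descriptions, since the rule used the same contrast. For the male-falling genes the median slope was -0.18 in males and 0.11 in females, beside medians of -0.017 and -0.0072 over the eligible genes in males and in females. For the male-rising genes it was 0.11 in males and -0.078 in females. In females of 10 to 40 days alone, a span close to that of the males, the median slope was 0.18 for the male-falling and -0.089 for the male-rising genes. The SE of these female slopes had a median of 0.11 in the male-falling genes. From 10 and 15 days to 35 and 40 days the male-falling genes changed by a median of -0.44 in males and 0.22 in females. For the male-rising genes these medians were 0.35 in males and -0.19 in females. With all ages, the male slope was larger in size than the female slope for 125 of the 150 male-falling and 112 of the 150 male-rising genes. In the male-falling genes the ratio of the sizes had a median of 1.71. Slopes of the eligible genes also spread more widely in males (quartiles of -0.13 and 0.092) than in females (-0.073 and 0.070). Steeper male slopes were thus not particular to the members, and the share of eligible genes with a steeper male slope was not counted. Changes between the ends of each sex's own span are set beside the share of eligible genes past the same fold, since such changes are common. Males of 38 and 40 days stood below males of 8 and 10 days by a median of -0.54 on the log2 scale in the male-falling genes (6 libraries at each stage), and 24 of these genes (16%, against 6.54% of eligible genes) had dropped at least 2-fold. Females of 75 and 80 days stood above females of 10 and 15 days by a median of 0.68 (6 libraries at each stage), and 47 of these genes (31.3%, against 13.0% of eligible genes) had gained at least 2-fold. In the male-rising genes the corresponding medians were 0.42 in males, with 12 genes up at least 2-fold (8%, against 7.60% of eligible genes), and -0.48 in females, with 24 down at least 2-fold (16%, against 9.37% of eligible genes). The 2-fold share of the male-rising genes in males was thus close to that of the eligible genes.

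Counts of members past the edgeR threshold (Benjamini-Hochberg adjusted p under 0.05 over all genes tested) are given beside the shares of eligible genes and of all genes tested that were called in that direction, and nothing is read from them. Of the male-falling genes 111 were called for a negative male slope (23.4% of eligible genes and 17.7% of all genes tested) and 107 for a positive female slope (18.8% and 18.1%). Of the male-rising genes 80 were called for a positive male slope (14.2% and 11.7%) and 106 for a negative female slope (26.8% and 17.7%). The difference of slopes between the sexes was called for 107 male-falling genes, lower in males in each case (6.93% and 5.39%), and for 135 male-rising genes, higher in males in each case (7.83% and 5.3%). By the authors' deposited table for the sex-by-age interaction, 140 male-falling genes were negative and 134 male-rising genes positive at an adjusted p under 0.05, where 15.3% of the genes with an adjusted p in that table passed in either direction. Which sex its sign refers to is not stated. Whatever their adjusted p, all 150 male-falling genes were negative and all 150 male-rising genes positive in it. These are the signs of the male slope less the female slope here.

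In males the members changed with small steps back, while in females they jumped between neighbouring ages. The level of a list in a library is its median over 150 genes of log2 CPM less each gene's own mean over the libraries of the shared ages. For the male-falling genes it was 0.56 ± 0.012 in males of 8 days, 0.44 ± 0.056 at 15 days, 0.17 ± 0.11 at 30 days and -0.062 ± 0.073 at 40 days (SD, n = 3 each). Male age means moved downwards apart from small steps back at 20, 30 and 35 days, and those of 38 and 40 days were both -0.062. At each shared age from 10 to 25 days and again at 35 days each male library lay above each female one. In females the level was -0.35 ± 0.091 at 10 days, -0.71 ± 0.095 at 15 days, 0.26 ± 0.056 at 30 days and -0.62 ± 0.11 at 35 days (SD, n = 3 each). It then stood at 0.14 ± 0.075 at 40 days (SD, n = 2), -0.054 ± 0.19 at 45 days and 0.37 ± 0.053 at 50 days (SD, n = 3 each). Later it was 0.47 ± 0.018 at 65 days (SD, n = 2), -0.060 ± 0.40 at 75 days and 0.21 ± 0.11 at 80 days (SD, n = 3 each). The 3 females of 35 days, from -0.69 to -0.50, were below each female library of 20, 25, 30 and 40 days, so this dip was shared by its replicates. The spread of age means (their SD) was 0.20 in males (13 ages) and 0.36 in females (15 ages), against a pooled SD between replicates of 0.12 in males and 0.15 in females.

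The male-rising genes mirrored this course. Their level was -0.45 ± 0.12 in males of 8 days, -0.44 ± 0.15 at 15 days, -0.17 ± 0.084 at 30 days and -0.041 ± 0.081 at 40 days (SD, n = 3 each). Male age means stepped back from -0.15 at 28 days to -0.22 at 33 days. In females the level was 0.38 ± 0.046 at 10 days, 0.50 ± 0.090 at 15 days, 0.0080 ± 0.043 at 30 days and 0.48 ± 0.066 at 35 days (SD, n = 3 each). It was then 0.052 ± 0.055 at 40 days (SD, n = 2), 0.14 ± 0.10 at 45 days (SD, n = 3) and -0.37 ± 0.018 at 65 days (SD, n = 2). The last female values were -0.010 ± 0.14 at 75 days and -0.034 ± 0.084 at 80 days (SD, n = 3 each). The ages of 15 and 35 days, lowest in females for the male-falling genes, were thus the highest for the male-rising ones. The 35-day female libraries held 14000954 to 19663197 gene counts, 0.866% to 1.13% of their counts in the spike-ins, and 1.03% to 11.4% of their gene counts in a block of 7 abundant genes that varies between libraries. The part of these values in the dip was not tested. Without the females of 15 and 35 days, a choice made after seeing the data, 93 of the 150 male-falling and 118 of the 150 male-rising genes still met the rule.

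**Figure D2:**
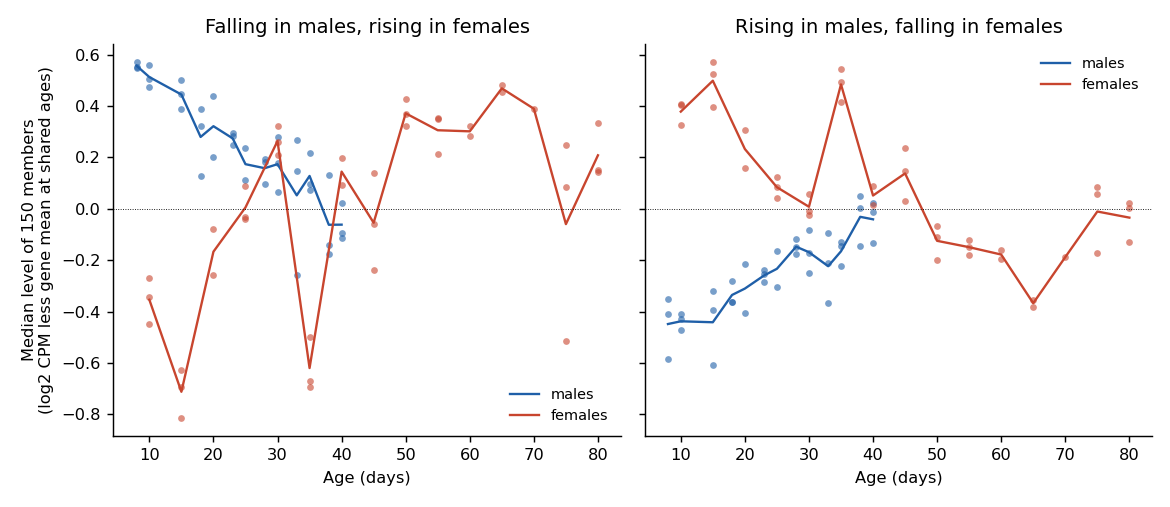
Level of the male-falling (left) and male-rising genes (right) by age in days. Each point is 1 library, given as the median over 150 genes of log2 CPM less the gene's mean at the shared ages, and lines join the means of an age, males in blue and females in red. The male lines move with small steps back. The female lines jump back at 15 and 35 days and also step back at ages such as 45 and 75 days.

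Within parts of the female span, the trend was seen at 10 to 40 days and was near 0 at 45 to 80 days, although levels at 60 to 70 days lay farther from those at 10 and 15 days than levels at 35 and 40 days did. The median female change from 10 and 15 days was 0.22 at 35 and 40 days and 0.94 at 60 to 70 days for the male-falling genes, and -0.19 and -0.78 for the male-rising genes. In the 19 female libraries of 10 to 40 days rho was positive for 134 of the 150 male-falling genes (median 0.33) and negative for 132 of the 150 male-rising genes (median -0.35). Of the eligible genes 47.5% were positive and 52.5% negative in these libraries. In the 20 female libraries of 45 to 80 days rho was positive for 81 male-falling genes (median 0.029) and negative for 97 male-rising genes (median -0.073). Here 46.6% of eligible genes were positive and 53.3% negative. In males the trend was present in both parts. In the 14 libraries of 8 to 20 days rho was negative for 112 male-falling genes (74.7%, against 56.5% of eligible genes). There it was positive for 105 male-rising genes (70%, against 43.3% of eligible genes). In the 23 libraries of 23 to 40 days rho had these signs for 136 and 136 (90.7% each, against 50.7% and 49.3% of eligible genes). The windows were parts of the libraries that chose the members, so these are descriptions.

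APZ42_016324 and APZ42_013602 had the largest smaller rho among male-falling genes whose median CPM reached 10 in both sexes. APZ42_016324 ranged from 100.8 to 212.9 CPM over the male libraries (median 145.1) and from 17.7 to 160.8 CPM over the female libraries (median 56.0). At 10 days it stood at 175.1, 203.2 and 172.7 CPM in males and at 30.2, 30.0 and 25.5 CPM in females. At 40 days it stood at 108.5, 112.3 and 109.8 CPM in males and at 59.3 and 160.8 CPM in females. The sexes did not overlap at the shared ages from 10 to 35 days and overlapped at 40 days, and the ratio of the male to the female mean was 6.43 at 10 days, 8.86 at 15 days, 2.24 at 30 days and 1.00 at 40 days. The fitted slopes were -0.26 ± 0.033 in males and 0.21 ± 0.047 in females (log2 per 10 days, SE).

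APZ42_013602 changed order between the sexes from age to age. It ranged from 22.8 to 70.7 CPM in males (median 37.01) and from 3.49 to 295.6 CPM in females (median 101.8). Males of 15 days stood at 44.4, 51.9 and 37.01 CPM, and females of that age at 3.49, 4.65 and 3.77 CPM. Males of 40 days stood at 25.5, 27.6 and 26.2 CPM, and females at 129.3 and 93.4 CPM. Males were thus above females at 15 days and below them at 40 days, with no overlap at either age. They were below without overlap at 20, 25 and 30 days too, and above without overlap at 15 days alone. At 10 days the sexes overlapped, with a ratio of the male to the female mean of 1.12. At 35 days the sexes overlapped, with a mean of 26.9 CPM ± 3.53 in males and 20.5 CPM ± 4.18 in females (SD, n = 3 each), so that the female dip at 15 and 35 days seen over the list was present in this gene. Its slopes were -0.41 ± 0.045 in males and 0.33 ± 0.082 in females (log2 per 10 days, SE).

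Among the male-rising genes APZ42_025436 and APZ42_030635 were chosen in the same way. APZ42_025436 ranged from 7.61 to 31.7 CPM in males (median 17.0) and from 4.82 to 87.2 CPM in females (median 50.9). The lowest female value was 11 counts in a shallow library of 75 days, where the other females stood at 50.9 and 42.3 CPM. At 10 days this gene stood at 12.7, 14.7 and 12.1 CPM in males and at 87.2, 77.0 and 82.5 CPM in females. At 40 days it stood at 21.1, 17.9 and 19.5 CPM in males and at 72.6 and 51.1 CPM in females. Males lay below females without overlap at each of the 7 shared ages, by a ratio of 0.161 at 10 days, 0.485 at 30 days and 0.316 at 40 days. Its slopes were 0.27 ± 0.053 in males and -0.19 ± 0.036 in females (log2 per 10 days, SE), and the female mean was 36.8 CPM ± 4.33 at 80 days (SD, n = 3).

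APZ42_030635 was closer between the sexes, with 11.3 to 23.8 CPM in males (median 16.7) and 3.40 to 33.7 CPM in females (median 16.1). The lowest female value was 18 counts in a shallow library of 65 days, where the other female library stood at 9.12 CPM. In males the means were 12.8 CPM ± 1.12 at 8 days and 19.5 CPM ± 0.887 at 40 days (SD, n = 3 each). In females they were 21.2 CPM ± 3.05 at 10 days, 30.7 CPM ± 3.88 at 35 days and 13.6 CPM ± 1.39 at 80 days (SD, n = 3 each). Between 10 and 40 days its female slope was 0.079 ± 0.085 (log2 per 10 days, SE) and over 10 to 80 days it was -0.18 ± 0.037. Sexes did not overlap at 10, 15, 20, 25 and 35 days, with males lower, and overlapped at 30 and 40 days.

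**Figure D3:**
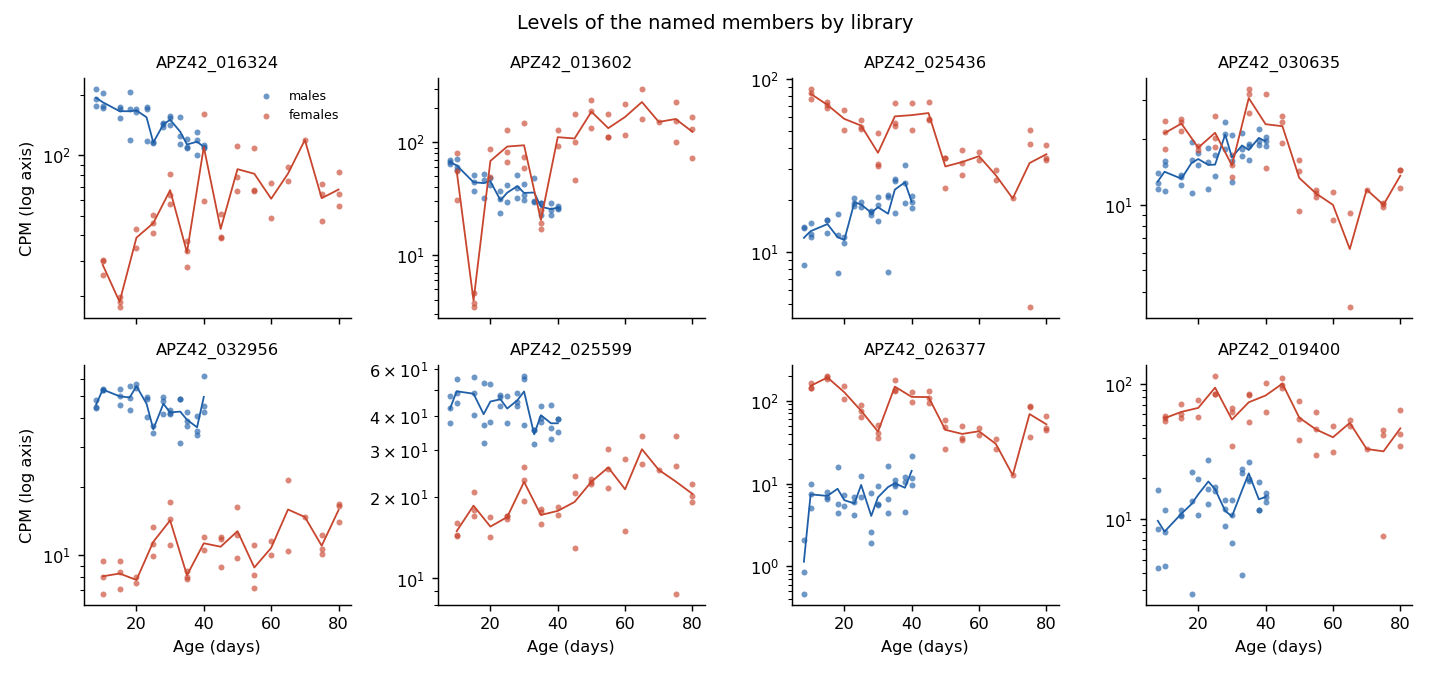
CPM on a log axis against age in days for 8 named members, 1 point per library, with males in blue, females in red and lines through the means of an age. The upper row holds the male-falling APZ42_016324 and APZ42_013602 and the male-rising APZ42_025436 and APZ42_030635. The lower row holds the 4 members with the smallest p for sex at the shared ages, where the sexes stay apart at each of the 7 shared ages.

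The mean level of a gene in males relative to females was not itself used by the rule, and it differed between the lists. It is not independent of the rule, since the females of the shared ages are the early part of the female span. Genes chosen for rising in females tend to be low in them, and genes chosen for falling tend to be high. How far the counts below come from this was not tested. At the 7 shared ages most male-falling genes were higher in males and most male-rising genes were lower in males. Of the 150 male-falling genes 85 were higher in males, 23 were lower and 42 were not called (edgeR quasi-likelihood test with age as a factor, adjusted p under 0.05 over 18833 genes, 19 libraries of each sex). Of the 150 male-rising genes 4 were higher in males, 122 were lower and 24 were not called. Among the eligible genes 30.8% were higher and 40.7% lower in males, and among all genes tested 32.3% and 31.1%. The median male over female change was 0.40 on the log2 scale for the male-falling genes and -0.52 for the male-rising genes, beside -0.098 for the eligible genes. At least 2-fold differences were called for 40 male-falling genes higher in males and 4 lower, and for 2 male-rising genes higher in males and 37 lower, where 1021 of the 10701 eligible genes were higher and 1135 lower. At least 4-fold differences were called for 12 male-falling genes higher in males and 14 male-rising genes lower, where 311 eligible genes were higher and 185 lower. With spike-in library sizes, which moved the median eligible gene by -0.31, the male-falling genes gave 47 higher and 33 lower and the male-rising genes 2 higher and 129 lower. Without the libraries of 15 and 35 days, left out after seeing the data, the counts were 65 higher and 32 lower for the male-falling genes and 10 higher and 97 lower for the male-rising genes. Shares of eligible genes called were not taken under these settings, and the shares above do not apply to them.

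**Figure D4:**
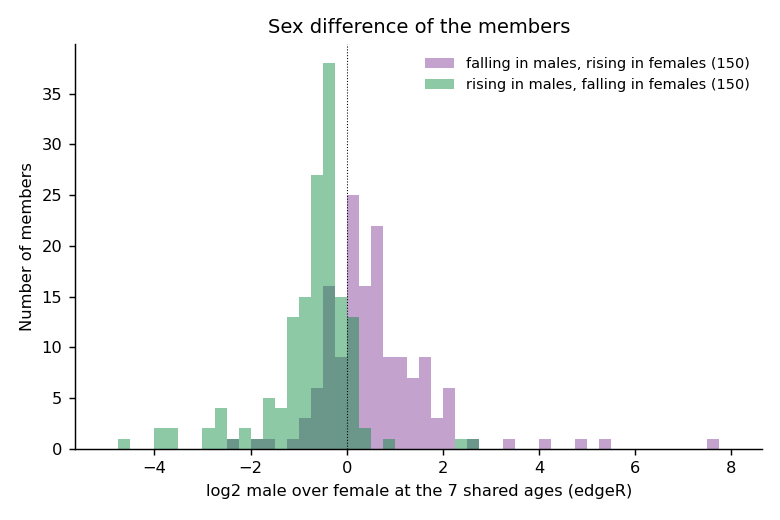
Number of members (vertical axis) by log2 change of males over females at the 7 shared ages, fitted with edgeR on 19 male and 19 female libraries, in bins of equal width. The male-falling genes lie mostly above 0 (median 0.40) and the male-rising genes mostly below 0 (median -0.52).

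The members with the smallest p were apart at each shared age. APZ42_032956, a male-falling gene, stood at 34.7 to 61.3 CPM in males (median 45.2) and at 6.75 to 17.2 CPM in females (median 9.39) over 19 libraries of each sex, a log2 change of 2.23 ± 0.097 (SE, edgeR adjusted p = 4.39e-20). APZ42_025599, also male-falling, stood at 34.8 to 56.2 CPM in males (median 43.8) and 14.2 to 25.9 CPM in females (median 17.1), a log2 change of 1.32 ± 0.065 (SE, edgeR adjusted p = 1.69e-18). In both genes the lowest male library lay above the highest female library of the shared ages. APZ42_026377, a male-rising gene, stood at 5.003 to 21.5 CPM in males (median 7.91) and 35.6 to 196.6 CPM in females (median 129.2), a log2 change of -3.74 ± 0.19 (SE, edgeR adjusted p = 6.08e-18). APZ42_019400, also male-rising, stood at 4.52 to 26.5 CPM in males (median 13.5) and 35.0 to 114.2 CPM in females (median 62.1), a log2 change of -2.39 ± 0.13 (SE, edgeR adjusted p = 1.58e-17). Here the highest male library lay below the lowest female one. Of the 4 genes named for their trends, 3 were called: APZ42_016324 was higher in males by 1.75 ± 0.19 (SE, edgeR adjusted p = 4.22e-10), APZ42_025436 lower by -1.85 ± 0.13 (SE, edgeR adjusted p = 1.31e-14) and APZ42_030635 lower by -0.47 ± 0.099 (SE, edgeR adjusted p = 8.72e-05). For APZ42_013602, whose order changed from age to age, the change was -0.28 ± 0.33 (SE, edgeR adjusted p = 0.465). Without the libraries of 15 and 35 days it became -1.04 (edgeR adjusted p = 0.000473), and that of APZ42_030635 became -0.27 (edgeR adjusted p = 0.0520).

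The 4 male-rising genes that went against their list, named after their values were seen, were APZ42_025444, APZ42_025469, APZ42_029159 and APZ42_032867. APZ42_025444 averaged 233.6 CPM ± 60.0 in males and 40.5 CPM ± 9.77 in females over the shared ages (SD, n = 19 each), a log2 change of 2.50 ± 0.15. For APZ42_025469 the means were 57.9 CPM ± 16.8 in males and 9.73 CPM ± 2.04 in females (SD, n = 19 each), a log2 change of 2.51 ± 0.14. The differences were smaller for APZ42_029159 (0.78 ± 0.16) and APZ42_032867 (0.45 ± 0.086). In these 4 genes the gap between the sexes was wider at 35 and 40 days than at 10 and 15 days, and in APZ42_025444 it was 2.99 at the later and 1.69 at the earlier ages on the log2 scale. These genes were chosen for rising in males and falling in females and were higher in males. The widening is therefore largely fixed by the choice, and nothing is read from it.

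The gap between the sexes was smaller at later ages in most members, as opposite trends make likely. The gap is the mean log2 CPM of males less that of females at 1 age, which depends both on the level and on the trends that chose the members. For the male-falling genes its median was 0.81 at 10 days, 1.12 at 15 days, 0.40 at 20 days, 0.092 at 25 days, -0.063 at 30 days, 0.64 at 35 days and -0.11 at 40 days. For the male-rising genes it was -0.79 at 10 days, -0.90 at 15 days, -0.53 at 20 days, -0.37 at 25 days, -0.13 at 30 days, -0.70 at 35 days and -0.081 at 40 days. The median over the eligible genes stayed between -0.13 and -0.0042 at these ages. Without regard to sign, however, the median gap of the eligible genes was 0.67 at 15 days and 0.61 at 35 days. At the other shared ages that median lay between 0.45 and 0.52. Larger gaps at 15 and 35 days were thus not particular to the members. The 35-day value of both lists lay between those of 10 and 20 days. Taking 10 and 15 days together (6 libraries of each sex) and 35 and 40 days together (6 male and 5 female libraries), the gap was smaller in size at the later ages for 124 of the 150 male-falling and 130 of the 150 male-rising genes, and for 56.6% of the eligible genes.

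**Figure D5:**
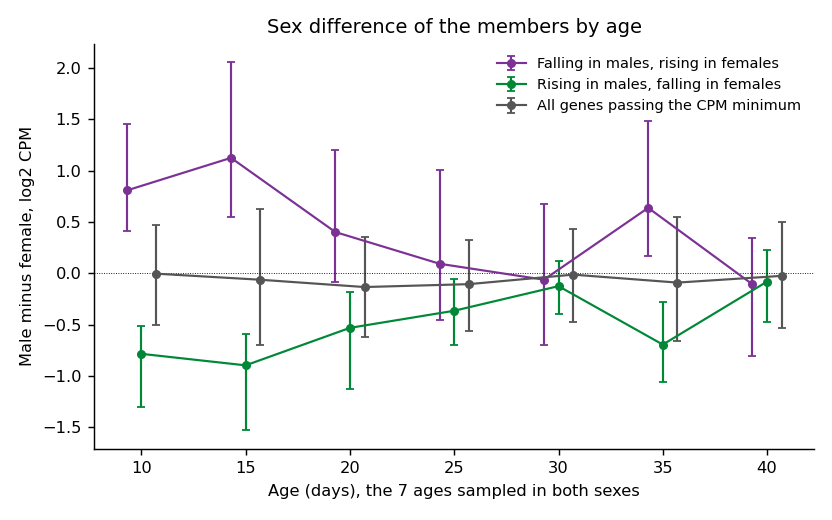
Male minus female log2 CPM at the 7 ages sampled in both sexes, as the median over genes with bars for the interquartile range of the genes. The male-falling genes start above 0 and the male-rising genes below 0, both lie near 0 at 30 and 40 days, and both step back at 35 days.

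The gap is given next by the sex difference of the gene. Since the rule took genes that fall in males and rise in females, or the reverse, a gap that shrinks is largely fixed by the choice of members where the list's usual order holds, and nothing is read from these counts. Of the 85 male-falling genes called higher in males, 84 had a smaller gap at 35 and 40 days than at 10 and 15 days, with medians of 1.54 at the earlier and 0.87 at the later ages. The 23 called lower in males had a median gap of 0.15 at the earlier and -0.80 at the later ages, and 17 of them changed order. Of the 122 male-rising genes called lower in males, 118 had a smaller gap later, with medians of -0.999 at the earlier and -0.49 at the later ages. Each male library lay above each female library at 10 and 15 days for 98 male-falling genes (17.9% of eligible genes) and at 35 and 40 days for 30 (13% of eligible genes). For the male-rising genes each male library lay below each female library for 111 at 10 and 15 days (23.1% of eligible genes) and for 44 at 35 and 40 days (17.5% of eligible genes).

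Replicates of 1 sex and age varied less in the male-rising genes than in the male-falling ones. The median SD of log2 CPM between replicates was 0.31 in males and 0.37 in females for the male-falling genes, and 0.26 in males and 0.25 in females for the male-rising genes. Over the eligible genes it was 0.32 in males and 0.35 in females. Spread between replicates lowers a rho taken over single libraries, so the rule favours genes with a small spread. At the limit of 150 the smaller absolute rho was 0.37 for the male-rising and 0.33 for the male-falling genes. The spread is therefore not independent of the choice, and how far the difference comes from it was not tested. Deviations from the age mean were weakly shared within a list, with a mean pairwise correlation between genes of 0.098 in 37 male and 0.11 in 38 female libraries for the male-falling genes and 0.11 and 0.092 for the male-rising genes, beside 0.031 in males and 0.025 in females over the eligible genes. Between genes of different lists it was -0.0028 in males and -0.018 in females. These correlations are descriptions over the same libraries and share their depth and scaling.

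The direction of the female trend of the male-falling genes depends on what a library is scaled to. CPM here are relative to the median gene (TMM scaling), and with sizes taken from the synthetic spike-ins the slope of the median eligible gene moved by -0.0050 per 10 days in males and by -0.14 in females. The female slope of the male-falling genes then became -0.031, with 8 of the 150 still meeting the rule, and that of the male-rising genes -0.22, with 37 of 150 meeting it. Relative to the median eligible gene the female slopes were 0.12 with either scaling for the male-falling genes. They were -0.071 with TMM and -0.067 with the spike-ins for the male-rising genes. Other library sizes move the slopes of all genes by about the same amount, so this likeness is fixed in advance and checks nothing. The median female slope of the male-falling genes was thus positive with TMM and not with the spike-ins. Their female rise is stated relative to the median gene only. Male slopes were -0.18 with either scaling for the male-falling genes and 0.11 with TMM against 0.10 with the spike-ins for the male-rising genes. The spike-ins held 0.217% to 1.72% of the counts in males, 0.325% to 1.13% in females of up to 40 days and 0.318% to 2.31% in older females, and the amount added per library is not known here.

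Other differences between libraries were followed in the members. By the ratio of SIRV7 to SIRV1, a pair of the spike-ins, the libraries form 2 clusters of 48 and 28. In the larger cluster (24 male and 24 female libraries) rho had the sign of the rule in males for 148 of the male-falling and 150 of the male-rising genes, and in females for 150 and 150. In the smaller one (13 male and 15 female libraries) it had that sign in males for 143 and 148 and in females for 142 and 148. The clusters are parts of the libraries that chose the members, so that these counts are largely fixed by the choice and check nothing. With the cluster as a covariate, added after seeing the data, the sex test at shared ages gave 84 higher and 22 lower for the male-falling genes, and 4 higher and 122 lower for the male-rising genes. The share of eligible genes called was not taken with this covariate. The block of 7 abundant genes held over 30% of the gene counts in 14 libraries, and without these, a choice made after seeing the data, 133 male-falling and 143 male-rising genes still met the rule. The 3 shallowest libraries, a male of 33 days and females of 65 and 75 days, stood apart in part: the 75-day library had a level of -0.51 for the male-falling genes, against 0.086 and 0.25 in the other females of that age. Without these 3 libraries 149 and 150 members still met the rule.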

How the data were processed

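The authors deposited whole-number read counts for 26646 gene IDs and 7 spike-in (SIRV) rows in 80 columns, not normalised, and a table of the sex-by-age interaction with, per the file headers, the mean signal after scaling, the log2 change, its error and adjusted p-values. The submitters' processing notes name TopHat2 2.1.1 and DESeq2 1.20. Of read assignment, strand setting, build and annotation, nothing is given in the sources used here. Near-identical or overlapping genes may therefore share reads. A TruSeq mRNA kit was used, per the labels' protocols.

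Sex, age and replicate came from sample titles. The 3 columns marked as mislabelled entered nothing, and 2 technical runs of a male of 10 days were summed, leaving 76 libraries. Spike-in rows stayed out of library sizes and tests except where stated. CPM are counts over the library size after TMM scaling, logged with a prior count of 2. Tests used edgeR 4.0.16 in R 4.3.3 (filterByExpr by sex and age, quasi-likelihood F-test, Benjamini-Hochberg adjustment over all genes tested, 0.05). Standard errors were derived from the change and its F value. Alternatives used relative log expression scaling, DESeq2 1.42.0 and limma 3.58.1. The sex test and the rule were run on simulated counts with planted sex differences and opposite slopes. The planted slopes were steeper than the median slopes of the members and had no dips. This run therefore checks the code and not how well such members are found here. Figures were drawn with matplotlib 3.10.9.

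Members and tests were chosen with earlier results of these data known. Named genes were, per direction, the 2 with the largest smaller absolute rho and a median of at least 10 CPM in each sex, and, over both lists, the 2 higher and 2 lower in males with the smallest p.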

Additional observations from a re-analysis of the deposited data

How the results depend on the processing

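Direction and count of the sex difference at shared ages stayed within 1.5 times of those reported in most alternatives. Only members were counted in the alternatives, so no share of eligible genes stands beside these counts. The male-rising genes higher in males, 4 as reported, were 9 with relative log expression scaling, 2 with spike-in library sizes, 10 with DESeq2, 15 with all 76 libraries and linear age, 7 without the 35-day libraries and 10 without those of 15 and 35 days. The male-falling genes higher in males were 47 with spike-in sizes. Leaving out each of 38 libraries in turn gave 84 to 89 and 21 to 27 male-falling genes higher and lower in males, and 4 to 6 and 117 to 126 male-rising ones. With all libraries and linear age APZ42_013602 passed the threshold (log2 change -0.91, edgeR adjusted p = 0.00180) and APZ42_030635 did not (-0.21, edgeR adjusted p = 0.102).

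The number of genes meeting the rule moved more. Male-falling genes, 206 as reported, numbered 8 with spike-in sizes, 438 at a rho of 0.2, 74 at 0.4, 364 with females of 10 to 40 days alone, 375 with the shared ages alone, 326 with rho over age means and 120 without females of 15 and 35 days. Male-rising genes, 292 as reported, numbered 450 without the abundant genes, 625 at a rho of 0.2, 107 at 0.4, 447 with the second technical run alone and 533 with rho over age means. Of the 150 members of each list, 78 and 87 met the rule with females of 10 to 40 days alone. Leaving out each of 76 libraries gave 175 to 258 and 257 to 330 genes. In these and the other counts of the rule over fewer libraries, library sizes were kept from the full set, so the scaling was not varied. The median female slope of the male-falling genes was -0.031 with spike-in sizes and 0.18 in females of 10 to 40 days, and that of the male-rising genes -0.22 with spike-in sizes. The causes were not tested.

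Replicate numbers did not enter the reported sex test. Same-numbered males and females of 1 age deviated with correlations from -0.73 to 0.43 (median -0.029) over 18 pairs, 7 of them over 0.1. Deviations were taken from means of 2 or 3 libraries, so pairs of 1 age are not independent. These values therefore cannot exclude pairing. With a replicate block the counts were 84, 22, 4 and 122 in place of 85, 23, 4 and 122.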
